A study of Rattus norvegicus with 8 samples.

Results

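The UDP-glucuronosyltransferases (UGT), sulfotransferases (SULT) and glutathione S-transferases (GST) are the main conjugation enzymes of the liver. They were measured in male Goto-Kakizaki rats, an inbred lean strain with type 2 diabetes, at 18 weeks of age. The livers came from 4 rats fed for 12 weeks on AIN-93G, a purified diet, with an extract of persimmon peel added, and from 4 rats fed AIN-93G without it. All 8 rats ate the plain diet for the week before the groups were formed. The amount of extract in the diet is not given in the sources used here, and no non-diabetic strain was included. Members were all probe sets with exactly 1 platform gene symbol beginning with Ugt1, Ugt2, Ugt3, Sult, Mgst or Gst followed by a letter. This gave 49 of 31042 probe sets, for 46 of 14217 genes: 25 sets for 24 GST genes, 15 sets for 14 SULT genes and 9 sets for 8 UGT genes. Every UGT member belonged to the UGT2 group. The question asked of them was whether their expression differed between the diets.

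Conjugation makes a drug, hormone, bile acid or plant phenol more soluble in water by attaching a polar group. UGT enzymes of the endoplasmic reticulum attach glucuronic acid from UDP-glucuronic acid. SULT enzymes of the cytosol attach sulfate from the donor PAPS, and GST enzymes attach the tripeptide glutathione to reactive electrophiles. Hepatocytes are the main site of all 3 reactions, and the products leave through export pumps into bile or blood.

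Of the 46 genes, 34 had at least 1 of 36 tested probe sets, that is a set in the brighter 50% of the array by mean signal, here a mean of at least 34.4 MAS5 signal units. In the brightest set of each gene, 2 of the 34 were lower on the persimmon peel diet (5.88%) and 0 were higher, by limma at a Benjamini-Hochberg adjusted p under 0.05 over all 15521 tested sets. Both were sulfotransferases, Sult1a1 and Sult1b1. The same 2 were called among the 36 tested member sets, against 4.53% of all tested sets lower and 0.425% higher. Over the array, the brightest set was called lower in 1.93% and higher in 0.469% of 9174 tested genes. The members' count of 2 is too small to be read against that share. At an unadjusted p under 0.05, 7 members were lower (20.6%) and 3 were higher (8.82%), against 9.48% and 6.8% of all tested genes. In 5 members (14.7%) all persimmon peel arrays lay below all control arrays, against 7.21% of all tested genes, and in 0 members they all lay above, against 3.24%. The median log2 fold change, always persimmon peel minus control diet, was -0.03 over the 34 members and 0.01 over all tested genes.

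Measures of the whole arrays bear on every value given here. The array medians were 33.2 to 39.2 units, and the correlation between any 2 arrays was 0.967 to 0.986. For beta-actin, the middle control set relative to the 3' one, a sign of RNA and labelling quality, stood at a log2 ratio of -1.06 ± 0.11 on the persimmon peel diet and -0.76 ± 0.02 on the control diet (SD, n = 4 each), with no overlap (exact two-sided permutation test, p = 0.0286, the smallest this design allows, adjusted over 4 ratios 0.0571). The 5' to 3' ratio of beta-actin was -1.97 ± 0.22 on the persimmon peel diet and -1.68 ± 0.12 on the control diet (SD, n = 4 each), with the same exact p. For GAPDH the middle to 3' ratio was -0.59 ± 0.05 on the persimmon peel diet and -0.58 ± 0.03 on the control diet (SD, n = 4 each, exact p = 0.857), and its 5' to 3' ratio was -0.43 ± 0.08 on the persimmon peel diet and -0.29 ± 0.10 on the control diet (exact p = 0.0857). All 16 tested hepatocyte markers had a negative log2 fold change (median -0.09), and their summed signal was 148536 to 159968 units on the persimmon peel diet and 161345 to 170580 on the control diet. None of the 16 was called, and their sign changed with the setting: 8 of the 16 were negative under quantile normalization and 14 with the beta-actin ratio as a covariate. Whether hepatocyte number, RNA per hepatocyte or the quality of the arrays had a part in these signs cannot be told from whole liver, and was not tested. Of 8 bile duct markers only Epcam was tested (log2 fold change 0.0025, adjusted p = 0.995), and of 7 tested macrophage markers 5 were positive and 0 were called. Of 7 tested sinusoidal endothelial markers 5 were negative (median -0.05), and Fcgr2b, an Fc receptor, was called lower. Fcgr2b had 802, 855, 908 and 823 units on the persimmon peel diet, against 1071, 1152, 1164 and 1130.2 units on the control diet (log2 fold change -0.42, limma adjusted p = 0.009), with no overlap. Lyve1 of the same list, named like Fcgr2b after its value was seen, was at -0.24 (adjusted p = 0.113). Of 8 tested stellate cell markers 6 were negative (median -0.18) and 0 were called. The part of these measures in the results below was not tested. Calls over all 15521 tested sets also moved with the setting. Lower and higher sets numbered 703 and 66 in the main fit, 597 and 271 under quantile normalization and 942 and 267 without persimmon peel array 2. With the beta-actin covariate 0 were called, and 6081 of 9174 tested genes were negative (median -0.11), against 4348 in the main fit (median 0.01).

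The 5 tested SULT1 genes, which act mainly on phenols and related small molecules, all had negative log2 fold changes with a median of -0.24. Of the 5, 2 passed the test. Over all tested genes 47.4% were negative and 1.93% were called lower. At an unadjusted p under 0.05, 4 of the 5 (80%) were lower and 0 higher, against 9.48% and 6.8% of all tested genes. So few genes cannot be read against these shares. Under quantile normalization, and without persimmon peel array 2, 4 of the 5 were negative. Sult1a1, the main phenol sulfotransferase of liver, had signals of 7023, 7523, 7402 and 6995 units on the persimmon peel diet, against 8119, 8826, 8157 and 9206 units on the control diet. Every persimmon peel array lay below every control array. Its mean was 7236 ± 267 on the persimmon peel diet and 8577 ± 531 on the control diet (SD, n = 4 each), 0.844 times as high (log2 fold change -0.24, SE 0.06, limma adjusted p = 0.0326). Sult1b1, whose enzyme sulfates thyroid hormones and simple phenols, had 3339, 3639, 3614 and 3410 units on the persimmon peel diet, against 3837, 4351, 4158 and 4910 units on the control diet. Again the diets did not overlap, and the persimmon peel arrays lay closer together. The means were 3501 ± 149 and 4314 ± 450 for persimmon peel and control diet (SD, n = 4 each), 0.814 times as high (log2 fold change -0.30, SE 0.08, limma adjusted p = 0.0407). Both genes had 1 probe set only, so no second set checks either value.

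The promoters of these genes are shown because they are the members that passed the test, and that of Gstp1 because it is the leading GST gene by p. Each runs 5' to 3' from 250 bases before to 50 bases after the RefSeq start (build GRCr8), and capitals mark matches to the motifs named further on.
Sult1a1 promoter, chr1:190706063-190706362, minus strand: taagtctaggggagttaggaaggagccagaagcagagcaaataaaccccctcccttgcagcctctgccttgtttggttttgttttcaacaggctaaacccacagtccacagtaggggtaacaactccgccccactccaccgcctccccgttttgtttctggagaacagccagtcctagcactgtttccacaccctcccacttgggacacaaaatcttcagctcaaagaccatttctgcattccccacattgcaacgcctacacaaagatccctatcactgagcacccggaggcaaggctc
Sult1b1 promoter, chr14:20771667-20771966, plus strand: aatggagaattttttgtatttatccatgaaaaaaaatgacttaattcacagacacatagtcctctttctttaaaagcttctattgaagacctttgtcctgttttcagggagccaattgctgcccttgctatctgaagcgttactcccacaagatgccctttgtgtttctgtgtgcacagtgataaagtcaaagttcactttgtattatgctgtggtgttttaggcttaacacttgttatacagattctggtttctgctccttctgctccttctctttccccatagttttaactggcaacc
Gstp1 promoter, chr1:210769656-210769955, minus strand: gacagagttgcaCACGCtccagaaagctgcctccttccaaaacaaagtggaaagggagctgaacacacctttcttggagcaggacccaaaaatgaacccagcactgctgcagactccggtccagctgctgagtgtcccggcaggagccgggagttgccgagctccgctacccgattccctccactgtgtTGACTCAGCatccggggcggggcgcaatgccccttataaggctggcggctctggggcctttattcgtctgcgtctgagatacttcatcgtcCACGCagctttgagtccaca

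Both calls were close to the threshold and ended with small changes in the data. For Sult1a1 the adjusted p was 0.112 without persimmon peel array 1, 0.0938 without persimmon peel array 4, 0.0521 without control array 1, 0.0911 without control array 2 and 0.116 without control array 4. For Sult1b1 it was 0.13, 0.0581 and 0.0988 without persimmon peel arrays 1, 3 and 4, and 0.0926, 0.0697 and 0.135 without control arrays 2, 3 and 4. The sign and size held better: with each array left out in turn, the log2 fold change stayed between -0.27 and -0.21 for Sult1a1 and between -0.35 and -0.23 for Sult1b1. With the beta-actin ratio as a covariate, chosen after seeing the data and hard to separate from diet, the values were -0.17 and -0.22. In that fit 0 of all 15521 tested sets were called, so the loss of both calls is not particular to these genes. With no filter on dim sets the adjusted p was 0.177 for Sult1a1 and 0.125 for Sult1b1, and with no intensity trend 0.186 and 0.153. Under quantile normalization Sult1a1 was not called (-0.17, adjusted p = 0.0634) and Sult1b1 was (-0.25, adjusted p = 0.0416). Each gene was called in 9 of the 20 other settings tried. These include averaging a gene's probe sets, which leaves the signals of a gene with 1 set as they were.

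The other SULT1 genes did not pass. Sult1c2a had 443, 566, 378 and 363 units on the persimmon peel diet, against 500, 541, 569 and 714 units on the control diet. Only persimmon peel array 2 reached into the control range, and the log2 fold change was -0.42 (SE 0.14, adjusted p = 0.113). Without that array it was -0.55 and the gene was called lower (adjusted p = 0.0188), and with the beta-actin covariate it was -0.012. The oestrogen sulfotransferase gene Sult1e1 lay between 5707 and 7380 units on the persimmon peel diet and between 6979 and 8060 units on the control diet (log2 fold change -0.18, adjusted p = 0.234). Sult1c3 was nearly level, at 5198 to 6005 units on the persimmon peel diet and 5545 to 5977 units on the control diet (-0.03, 95% interval -0.17 to 0.11).

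SULT2 enzymes sulfate steroids, sterols and bile acids, and their 2 tested genes pointed in opposite directions. Sult2a6, of the hydroxysteroid group, had 628 to 790 units on the persimmon peel diet and 730 to 1036 units on the control diet (log2 fold change -0.24, adjusted p = 0.263). Sult2b1, whose enzyme acts on cholesterol and pregnenolone, had 150, 86.5, 127 and 110 units on the persimmon peel diet, against 78.2, 86.7, 99 and 83.3 units on the control diet. The persimmon peel values were mostly higher but array 2 lay inside the control range, and the log2 fold change of 0.43 (SE 0.16, adjusted p = 0.157) did not pass. Without persimmon peel array 2 it was 0.57 and the gene was called higher (adjusted p = 0.0328). It was -0.47 with the beta-actin covariate, and the dimmer set of Sult2b1 gave 0.06 (adjusted p = 0.925). Outside these groups, Sult4a1, a gene best known from brain, was dim and erratic, with 155, 74.1, 57.4 and 70.7 units on the persimmon peel diet and 40.5, 110, 69.2 and 28.9 units on the control diet. Its log2 fold change of 0.60 had the widest interval of all tested members (-0.18 to 1.37), and was 0.29 without persimmon peel array 1 or without control array 4 and 0.93 without control array 2. Sult5a1 was at 0.06 (adjusted p = 0.857).

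**Figure D1:**
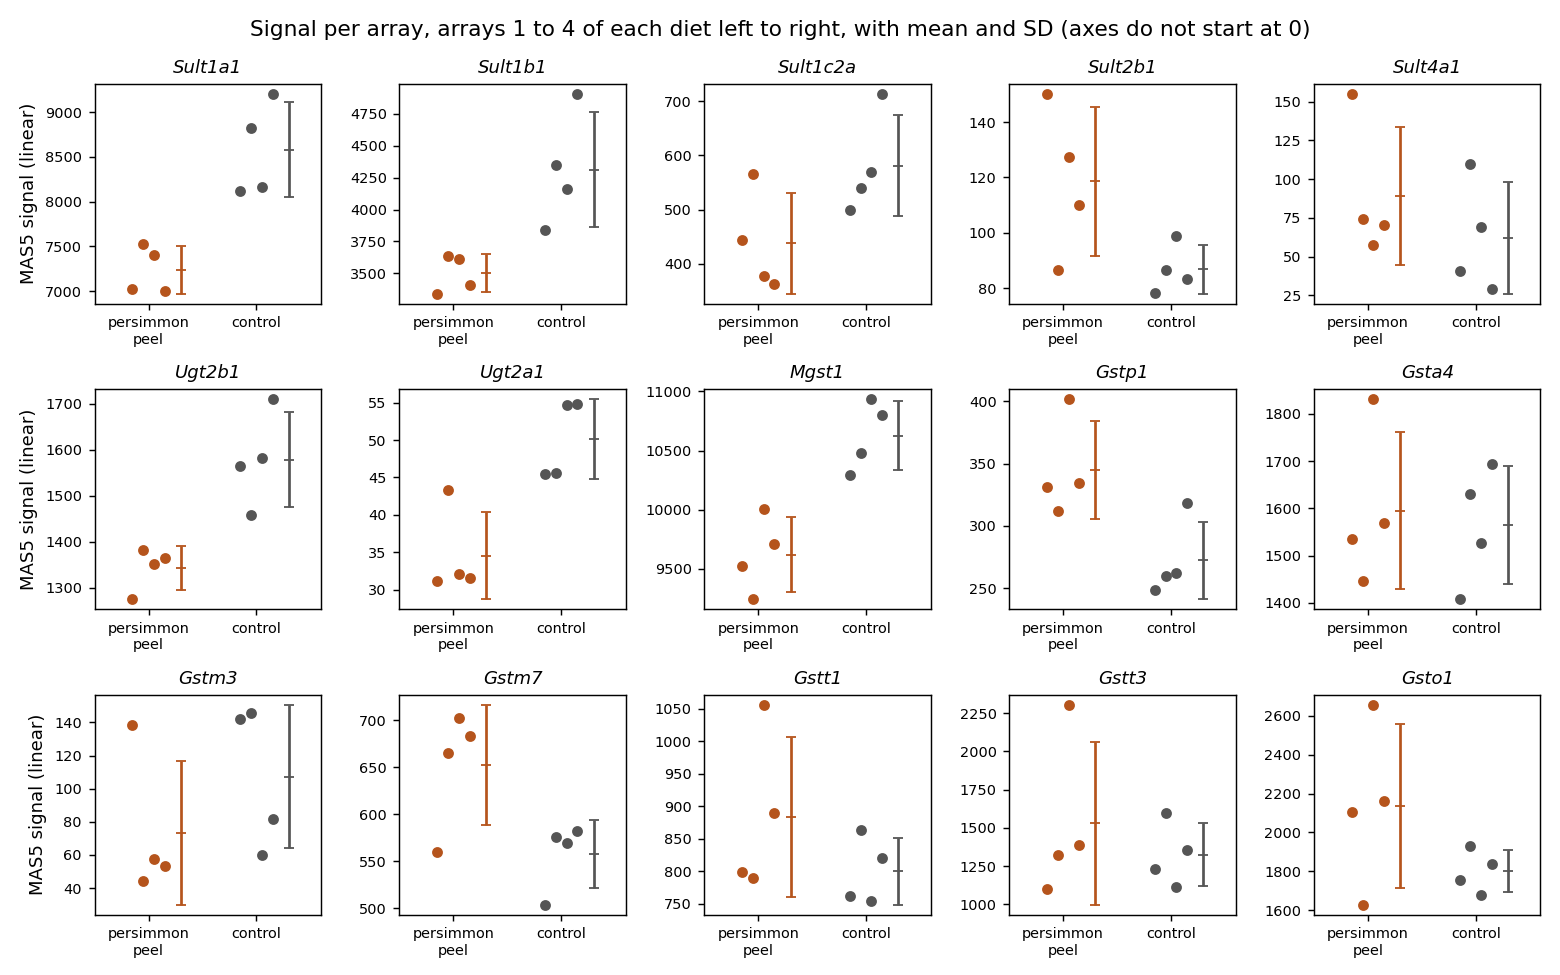
MAS5 signal on a linear scale (vertical axis, not starting at 0) for the 15 members named by the naming rule, each panel with the 4 persimmon peel arrays left and the 4 control arrays right, and mean with SD beside them. Sult1a1, Sult1b1, Ugt2b1, Ugt2a1 and Mgst1 show no overlap between the diets, and persimmon peel array 3 is the highest point for Gstt3 (2306 units) and Gsto1 (2658 units).

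All 6 tested UGT2 genes had negative log2 fold changes, from -0.55 to -0.05 with a median of -0.18, and 0 of them passed limma's threshold. Of all tested genes 47.4% were negative. At an unadjusted p under 0.05, 2 of the 6 (33.3%) were lower and 0 higher, against 9.48% and 6.8% of all tested genes. All 6 stayed negative under quantile normalization, under median centring and with each array left out in turn, and 5 of 6 with the beta-actin ratio as a covariate, where Ugt2a1 changed sign (0.01). Ugt2b1, a liver isoform that glucuronidates drugs and steroids, had 1275, 1383, 1352 and 1364 units on the persimmon peel diet, against 1565, 1458, 1582 and 1710 units on the control diet. The groups did not overlap, and the means were 1344 ± 47.3 and 1579 ± 103 for persimmon peel and control diet (SD, n = 4 each). The log2 fold change was -0.23 (SE 0.08, adjusted p = 0.104). Ugt2a1, known from the olfactory epithelium, had 31.2, 43.3, 32.1 and 31.6 units on the persimmon peel diet, against 45.4, 45.6, 54.7 and 54.8 units on the control diet. These also did not overlap, but such dim signals lie close to the filter, so the log2 fold change of -0.55 (SE 0.19, adjusted p = 0.11) has an uncertain size.

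The other 4 tested UGT2 genes overlapped between the diets. Ugt2b35 had 5018 to 5851 units on the persimmon peel diet and 5586 to 6351 units on the control diet (log2 fold change -0.12, 95% interval -0.27 to 0.03). Ugt2b15 had 3793 to 4182 units on the persimmon peel diet and 3543 to 4644 units on the control diet (-0.05, 95% interval -0.23 to 0.12). In Ugt2b10 the persimmon peel arrays split, with 1122 and 1145 units in arrays 1 and 2 and 1502 and 1592 units in arrays 3 and 4, against 1397 to 1516 units on the control diet (-0.13, adjusted p = 0.563). Ugt2b34l1 was dim, at 55.3 to 81.1 units on the persimmon peel diet and 70.8 to 96.8 units on the control diet (-0.33, adjusted p = 0.316).

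Gene order sets the UGT2 genes beside a sulfotransferase gene. In the RefSeq annotation, 8 UGT2 members, Sult1b1 and Sult1d1 form 1 run with at most 2 other protein-coding genes between any pair of neighbours, and Sult1b1 lies directly beside Ugt2a1. All 7 tested genes of that run had negative log2 fold changes, from -0.55 to -0.05 with a median of -0.23. Other runs also shared a sign: Sult1c2a and Sult1c3 were both negative (-0.42 and -0.03), the 3 theta-class GST genes all positive (0.07 to 0.16) and the 2 pi-class genes both positive (0.11 and 0.34), the GST signs changing without persimmon peel array 3. The 6 tested mu-class genes ranged from -0.60 to 0.22 with 4 negative. Neighbouring UGT2B genes, like the mu and alpha GST genes, are close paralogs, and how far a probe set also reads a paralog was not analysed here.

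**Figure D2:**
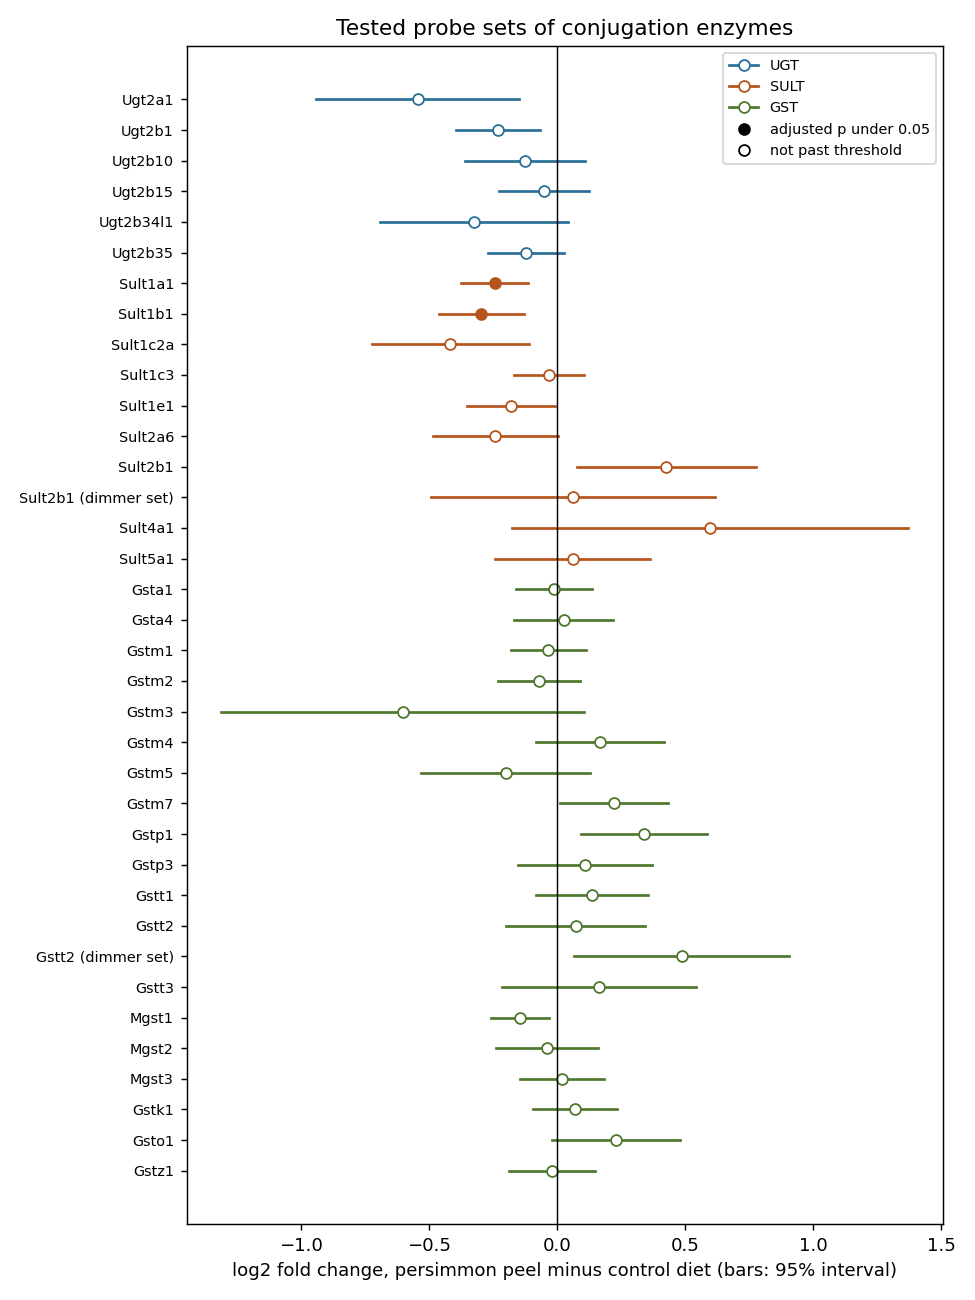
Log2 fold change, persimmon peel minus control diet (horizontal axis), with its 95% interval for the 36 tested probe sets of conjugation enzymes, by family from top to bottom. Only Sult1a1 and Sult1b1 are filled as past the adjusted threshold, all 6 UGT genes lie left of 0, and 16 of the 20 GST sets have intervals that include 0.

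Of the 19 tested GST genes, 11 had positive and 8 negative log2 fold changes with a median of 0.03, and 0 passed limma's threshold. At an unadjusted p under 0.05, 1 was lower (5.26%) and 2 were higher (10.5%), against 9.48% and 6.8% of all tested genes. In 15 of the 19 the 95% interval lay within 0.5 on the log2 scale in both directions, so for these genes larger differences fall outside the interval. The alpha class, which takes up much of the GST protein of rat liver and handles lipid peroxides, was level: Gsta1 had 5570 to 6279 units on the persimmon peel diet and 5596 to 6556 units on the control diet (-0.01, 95% interval -0.16 to 0.14). Gsta4, specialised for the lipid aldehyde 4-hydroxynonenal, had 1535, 1447, 1831 and 1568 units on the persimmon peel diet, against 1407, 1631, 1527 and 1694 units on the control diet (0.03, 95% interval -0.17 to 0.22).

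The mu class, which conjugates epoxides and quinones, had 4 of 6 genes negative, and 2 of 6 under quantile normalization. Gstm1 (-0.03, 95% interval -0.18 to 0.11) and Gstm2 (-0.07, 95% interval -0.23 to 0.09) were nearly level. Gstm7 had 560, 665, 703 and 683 units on the persimmon peel diet, against 504, 575, 570 and 582 units on the control diet. Of the persimmon peel arrays, 3 lay above all control arrays (log2 fold change 0.22, SE 0.10, adjusted p = 0.222). Gstm3 had 138, 44.5, 57.8 and 53.3 units on the persimmon peel diet and 142, 146, 59.7 and 81.5 units on the control diet. Its log2 fold change of -0.60 had an interval from -1.31 to 0.11, and was -0.96 without persimmon peel array 1 (adjusted p = 0.0907) and -2.42 with the beta-actin covariate. Gstm4 was at 0.17 (adjusted p = 0.456) and Gstm5 at -0.20 (adjusted p = 0.507).

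Gstp1 had the smallest p of the GST genes. It encodes the placental form, which is scarce in normal adult rat hepatocytes and marks preneoplastic foci. Its signals were 331, 312, 402 and 335 units on the persimmon peel diet, against 249, 260, 262 and 318 units on the control diet. Only control array 4 reached above the lowest persimmon peel array. The means were 345 ± 39.3 and 272 ± 31.2 for persimmon peel and control diet (SD, n = 4 each), a ratio of 1.27 (log2 fold change 0.34, SE 0.12, adjusted p = 0.108). Under quantile normalization the gene was called higher (0.37, adjusted p = 0.029). It was at 0.26 to 0.42 with each array left out in turn, not called in any of these, and at 0.12 with the beta-actin covariate. Without persimmon peel arrays 1 and 3 it was at 0.25 (adjusted p = 0.408). Gstp3, its neighbour, had 2788 to 4335 units on the persimmon peel diet and 2661 to 3699 units on the control diet (0.11, adjusted p = 0.662).

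The 3 theta-class genes, for enzymes that act on small halogenated compounds, were all positive in their brightest sets, but 2 of the 3 were negative without persimmon peel array 3 and 1 of the 3 with the beta-actin ratio as a covariate. Gstt3 had 1101, 1321, 2306 and 1390 units on the persimmon peel diet, against 1232, 1596, 1114 and 1353 units on the control diet. Array 3 alone stood above the control range, and the log2 fold change was 0.16 with all arrays (adjusted p = 0.653) and -0.05 without it. Gstt1 had 799, 790, 1056 and 889 units on the persimmon peel diet, against 762, 863, 754 and 820 units on the control diet (0.14, adjusted p = 0.499, and 0.046 without persimmon peel array 3). The 2 sets of Gstt2 differed in size, at 0.07 in the brighter (adjusted p = 0.795) and 0.49 in the dimmer (SE 0.20, adjusted p = 0.179).

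The remaining soluble classes and the membrane-bound forms also stayed below the threshold. Gsto1, an omega-class thioltransferase that reduces dehydroascorbate, had 2103, 1628, 2658 and 2162 units on the persimmon peel diet, against 1754, 1930, 1679 and 1836 units on the control diet. Of the persimmon peel arrays 3 lay above all control arrays and array 2 below them all. The log2 fold change was 0.23 (SE 0.12, adjusted p = 0.3), and 0.35 without persimmon peel array 2, where the gene was called higher (adjusted p = 0.033). Without persimmon peel array 3 it was 0.12 (adjusted p = 0.576), and with the beta-actin covariate -0.32. Gstk1, the kappa form of mitochondria and peroxisomes (0.07, 95% interval -0.10 to 0.23), and Gstz1, the maleylacetoacetate isomerase of tyrosine breakdown (-0.02, 95% interval -0.19 to 0.15), were nearly level.

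Mgst1, an abundant GST of the endoplasmic reticulum and outer mitochondrial membrane, was the GST gene whose diets did not overlap. It had 9528, 9244, 10003 and 9712 units on the persimmon peel diet, against 10293, 10481, 10935 and 10800.4 units on the control diet. The log2 fold change was small, -0.14 (SE 0.05, adjusted p = 0.142), a ratio of 0.905, and was -0.06 under quantile normalization. Mgst2 (-0.04, 95% interval -0.24 to 0.16) and Mgst3 (0.02, 95% interval -0.15 to 0.18) overlapped widely.

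Single arrays stood out among the GST genes. Among the persimmon peel arrays, array 3 was the highest in 17 of 19 GST genes (89.5%) and array 2 the lowest in 15 (78.9%), against 63.7% and 41.2% of all tested genes. Array 3 also had the highest median signal. After each array was centred on its median, array 3 was the highest in 6 of the 19 (31.6%) and array 2 still the lowest in 15 (78.9%), against 27.5% and 45.9% of all tested genes. As deposited, array 3 was the highest in 2 of 9 SULT genes and in 1 of 6 UGT genes. After centring it was the highest in 0 of the SULT and 0 of the UGT genes. It was then the lowest in 4 of 9 and 4 of 6, against 21.2% of all tested genes. The spread within the persimmon peel diet exceeded that within the control diet in 14 of 19 GST genes (73.7%), 4 of 9 SULT genes (44.4%) and 4 of 6 UGT genes (66.7%), against 62.8% of all tested genes.

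**Figure D3:**
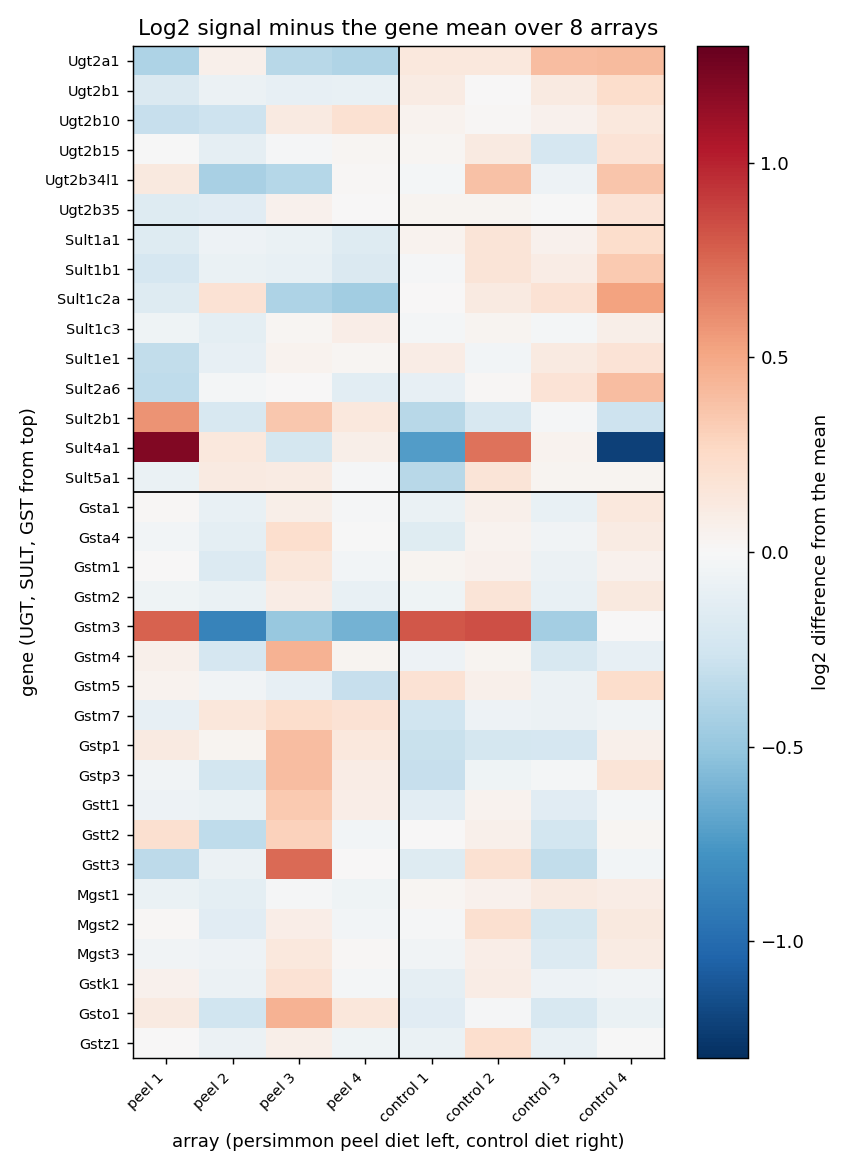
Log2 signal minus the gene's mean over the 8 arrays (colour) for the brightest set of 34 genes (rows; UGT, SULT and GST from the top) in persimmon peel arrays 1 to 4 and control arrays 1 to 4 (columns). Most SULT1 and UGT2 rows are bluer on the left, and the column of persimmon peel array 3 is reddest among the GST rows.

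The remaining 12 genes were not tested because all their sets were among the dimmest 50%. They were Gsta3, Gsta3l1, Gstcd, Gstm6l, Gsto2, Sult1c2, Sult1d1, Sult2a1, Sult2a2, Sult6b2, Ugt2b and Ugt2b7. No array gave more than 54.3 units on the persimmon peel diet or 54.2 units on the control diet for any of their 13 sets, and 0 of these sets were called with no filter. Whether these genes differ between the diets could not be seen at these signals.

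A promoter window was found for 39 of the 46 genes, and 4 motifs of regulators known for these families were searched on both strands. The core of the antioxidant response element bound by NRF2, TGACNNNGC, was in 7 of the 39 windows (17.9%) and in 12.1% of 33469 RefSeq promoters. The 7 were Gsta1, Gsta3, Gstcd, Gstm5, Gstm7, Gstp1 and Gstz1, and the log2 fold changes of the 5 tested among them ran from -0.20 for Gstm5 to 0.34 for Gstp1. In Gstp1 the match TGACTCAGC began at base -61 from the start. The core of the xenobiotic response element of the AHR, GCGTG, was in 9 windows (23.1%) against 29.7% of all, and shares bases with the antioxidant motif in the windows of Gstcd and Gstm5. An HNF1 half-site, GTTAAT, was in 5 windows (12.8%), those of Gsta1, Gsta3, Sult2a2, Sult2a6 and Ugt2b10, against 7.45% of all. The direct repeat DR1 of the nuclear receptor half-site, AGGTCA and again AGGTCA with any 1 base between, was in 0 windows against 0.054% of all. Only exact copies were searched, and at so low a share 0 of 39 windows says nothing about these genes. The windows of Sult1a1 and Sult1b1 held no exact match to the 4 motifs, and sites that differ by a base were not searched. A match or its absence is a description of these letters only.

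Around the conjugation enzymes, 1 of 88 tested genes was lower on the persimmon peel diet and 0 were higher, against 1.93% and 0.469% of all tested genes. The lower gene was Ppara, the nuclear receptor for fatty acids, with 44.2, 42.9, 53 and 29.3 units on the persimmon peel diet and 99, 68.6, 89 and 121 units on the control diet (log2 fold change -1.16, SE 0.21, adjusted p = 0.00658). These signals did not overlap and lie near the lowest level tested.

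The lists around the donor molecules, which hold genes of use and recycling as well as supply, showed no called gene. For UDP-glucuronic acid, 3 of 4 tested genes were negative (median -0.16), all 4 with the beta-actin covariate. Against a share of 9.48% of all tested genes, 2 of the 4 were lower at an unadjusted p under 0.05. They were Uxs1 and Ugp2. Uxs1 uses up UDP-glucuronic acid by turning it into UDP-xylose. It had 80.9 to 97.1 units on the persimmon peel diet and 105 to 126 units on the control diet (-0.36, adjusted p = 0.112). Ugp2 makes UDP-glucose (-0.18, adjusted p = 0.248). The list also held Ugdh (-0.14, adjusted p = 0.411) and Slc35d2 (0.03, adjusted p = 0.923). For PAPS, 6 of 9 were negative (median -0.07), 5 under quantile normalization. At the unadjusted threshold 1 was lower and 1 higher, against 9.48% and 6.8% of all tested genes. Slc26a1, a sulfate transporter, had 2226 to 2906 units on the persimmon peel diet and 2072 to 2143 units on the control diet (0.25, adjusted p = 0.11). It was called higher under quantile normalization (adjusted p = 0.0213) and without persimmon peel array 2 (adjusted p = 0.0391), and was at -0.032 with the beta-actin covariate. Bpnt1, which clears the spent donor, was at -0.24 (adjusted p = 0.169).

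For glutathione, 8 of 12 tested genes were negative (median -0.06), 6 under quantile normalization. At the unadjusted threshold 1 was lower and 1 higher, against 9.48% and 6.8% of all tested genes. Gss, the second enzyme of glutathione synthesis, had 552, 404, 615 and 439 units on the persimmon peel diet and 396, 399.8, 352 and 353 units on the control diet. Every persimmon peel array lay above every control array, array 2 by little, and the log2 fold change was 0.40 (SE 0.13, adjusted p = 0.0883). Gss was called higher under quantile normalization (adjusted p = 0.0418) and without persimmon peel array 2 (adjusted p = 0.0241), and was at -0.19 with the beta-actin covariate. Gclm, the modifier subunit of the first and rate-limiting enzyme, pointed the other way at -0.27 (adjusted p = 0.199).

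No gene was called among the 11 tested genes of other conjugation reactions, the 9 of deconjugation, the 8 exporters and the 12 partner enzymes. At an unadjusted p under 0.05 these lists held 1 lower and 1 higher, 0 and 0, 0 and 0, and 2 lower and 1 higher. Of all tested genes 9.48% were lower and 6.8% higher, and lists this short cannot be read against those shares. The leading genes were the N-acetyltransferase genes Nat1 (-0.27, adjusted p = 0.204) and Nat8 (0.55, adjusted p = 0.24), the carboxylesterase gene Ces2c (-0.21, adjusted p = 0.413) and the sulfatase gene Arsg (0.11, adjusted p = 0.852). Both Nat genes were called without persimmon peel array 2 (adjusted p = 0.032 and 0.027). Nat8 was at 0.27 without persimmon peel array 3 (adjusted p = 0.506), Nat1 at -0.049 as the mean of its probe sets, and both changed sign with the beta-actin covariate. Among exporters, 7 of 8 were positive with a median of 0.14, but 6 under median centring, 5 with array weights and 3 with the beta-actin covariate, led by Abcb1a (0.38, adjusted p = 0.282), while the phospholipid flippase gene Abcb4 was at -0.19 (adjusted p = 0.291). The cytochrome P450 genes Cyp3a18 (-0.54, adjusted p = 0.0749) and Cyp3a23-3a1 (-0.18, adjusted p = 0.153) led the partner enzymes, and Cyp3a18 was called lower without persimmon peel array 3 (adjusted p = 0.023) and with array weights (adjusted p = 0.0263).

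Among 23 tested regulators, Keap1, the repressor of NRF2, followed Ppara by p, with 491 to 575 units on the persimmon peel diet and 412 to 433 units on the control diet (0.27, adjusted p = 0.112), and was called higher under quantile normalization (adjusted p = 0.0312). As the mean of its probe sets Keap1 was at 0.013 (adjusted p = 0.955). Of the 23 regulators, 12 were negative and 11 positive (median -0.01). At an unadjusted p under 0.05, 6 were lower and 3 higher, against 9.48% and 6.8% of all tested genes. The xenobiotic receptor genes Nr1i3 (CAR) and Nr1i2 (PXR), named after their values were seen, did not pass. Nr1i3 had 273, 284, 301 and 304 units on the persimmon peel diet and 337, 361, 347 and 624 units on the control diet (-0.47, adjusted p = 0.116), with no overlap and 1 control array far above the rest. Nr1i2 was at -0.23 (adjusted p = 0.217). Hnf4a (0.23, adjusted p = 0.127) and Foxa3 (0.50, adjusted p = 0.16), also named after their values were seen, pointed the other way.

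**Figure D4:**
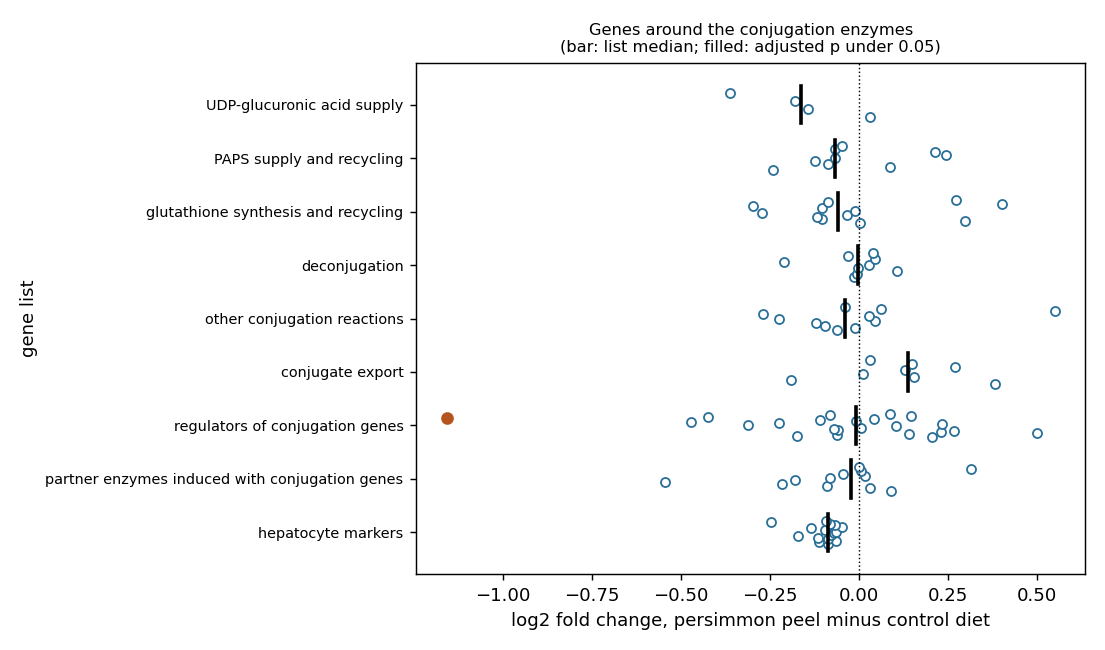
Log2 fold change, persimmon peel minus control diet (horizontal axis), of each tested gene in the lists around the conjugation enzymes and of the hepatocyte markers (rows), with list medians as bars. The single filled point is Ppara at -1.16, and the 16 hepatocyte markers all lie left of 0, which held for 8 of the 16 under quantile normalization.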

How the data were processed

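Liver RNA of 8 rats was hybridised to 1-colour Affymetrix arrays, 1 per animal. Per the labels' protocols, total RNA was isolated with ISOGEN, cleaned on RNeasy columns and converted to biotinylated cRNA. The deposited values are MAS5 intensity values on a linear scale, per the submitters' processing notes. Neither the scaling target nor a detection call per set was found in those notes. The table held 31099 probe sets, of which 57 were manufacturer's controls. All 8 columns were used and 0 were left over.

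Log2 was taken of the values as deposited, with neither pseudocount nor normalization, because the array medians spanned 0.24 on the log2 scale, under a limit of 0.5 for centring. The dimmest 50% of sets were left out. Diets were compared with limma 3.58.1 in R 4.3.3 (lmFit, eBayes with intensity trend, two-sided), fitted over all 15521 tested sets. Intervals and standard errors (SE) are the fit's moderated ones, and means and SDs are on the linear scale. The number of arrays limits the precision. Each diet had 4 rats according to the series description, 1 for every array. Alternatives covered normalization, pseudocount, filter, variance model, array weights, replicate block, covariate and left-out arrays. Symbols came from the platform annotation, updated by gene number through a RefSeq table of GRCr8 that holds 48 of the 49 member sets' genes (not Sult1e1). Of the other sets, 436 on the array carry several symbols and were given no name. The naming rule took every called member, the smallest p and the largest absolute change in each subfamily, members whose sets disagreed in sign with 1 called, and of each pathway list the called genes and the 2 smallest p. Members, lists and tests were chosen with earlier results of these data known. The code of the fit was tested on simulated arrays with independent normal noise and no shift of whole arrays. That run does not bear on the calls in these data. Promoter sequences are RefSeq's (GRCr8).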

Additional observations from a re-analysis of the deposited data

Results flagged for a closer look

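A test for a single value far from the others of its diet, which chance alone meets in about 1 of 20 groups, was applied to the brightest tested set of 34 members in both diets, 68 groups in all, and met in 3. For Ugt2a1, persimmon peel array 2 had 43.3 units against 31.2 to 32.1 units in the other persimmon peel arrays. For Gstm1, control array 3 had 8914 units against 9669 to 9774 units in the other control arrays. For Gstm7, control array 1 had 503.8 units against 569.5 to 582.1 units in the other control arrays.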

How the results depend on the processing

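The count of 2 lower conjugation genes (and equally of 2 lower probe sets) was the same under median centring, a pseudocount of 16, the upper 30% of sets by signal, a robust fit, array weights and, for genes, averaging all tested sets per gene. The averaging leaves the signals of Sult1a1 and Sult1b1 as they were, because each has 1 set. The count was 1 under quantile normalization, where 1 gene was called higher, and 0 with no filter and with no intensity trend. It was also 0 with the beta-actin ratio as covariate and with persimmon peel arrays 1 and 3 left out together, both chosen after seeing the data. Of all 15521 tested sets the covariate fit called 0, and the fit without the 2 arrays called 75 lower and 1 higher. With the replicate number as a block the count was also 0, as Sult1a1 (adjusted p = 0.0593) and Sult1b1 (0.0524) missed the threshold. Deviations of same-numbered arrays had r of -0.085 to 0.054 over 4 pairs, and those of differently numbered arrays -0.136 to 0.132. So few pairs cannot show whether the numbers pair the animals. With each array left out in turn, 0 to 3 conjugation genes were lower and 0 to 2 higher, 3 and 2 of them without persimmon peel array 2. Of all tested sets 942 were lower and 267 higher without that array, against 703 and 66 in the main fit. The 1 lower pathway gene became 2 with no filter, array weights or the replicate block. With no filter Arnt was called, which the main fit did not test. The count was 0 with the covariate and with the upper 30%, where Ppara was too dim to be tested. With an array left out the count was 1 to 2. Higher pathway genes numbered 3 under quantile normalization, where 271 of all tested sets were higher, and 0 to 4 with an array left out. Family medians ran from -0.04 to 0.07 for GST, -0.22 to -0.10 for SULT and -0.23 to -0.15 for UGT with an array left out. The SULT median was -0.07 under quantile normalization, against 0.05 over all tested genes. With the covariate the GST median was -0.21, against -0.11 over all tested genes. Of 612 values of the 31 named genes under other settings, 15 changed sign. With the covariate these were Gsta4 (-0.16), Gsto1 (-0.32), Sult4a1 (-0.23), Sult2b1 (-0.47), Ugt2a1 (0.015), Slc26a1 (-0.032), Gss (-0.19), Nat1 (0.21), Nat8 (-0.28) and Abcb4 (0.018). Gsta4 was at -0.051 without persimmon peel arrays 1 and 3. With an array left out the ranges were -0.042 to 0.071 for Gsta4, -0.054 to 0.30 for Gstt3 and -0.010 to 0.35 for Arsg. The cause of these changes was not tested, except that leaving out arrays compares fewer samples.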

Other observations

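Among the probe sets with several symbols, 4 carried a symbol of these families and were not members. The annotation lists 2 of them for the same 8 genes of the UGT1 locus, which share their last exons, so they cannot be assigned to 1 gene. The first had 4490, 4065, 5236 and 4789 units on the persimmon peel diet, against 5480, 4994, 5010 and 5161 units on the control diet (log2 fold change -0.16, limma adjusted p = 0.279). The other had 2321, 2539, 2798 and 3094 units on the persimmon peel diet, against 3179, 3055, 3031 and 3326 units on the control diet (-0.24, adjusted p = 0.14). A set listed for 2 alpha-class GST genes was level (0.0086, adjusted p = 0.964), and the fourth was too dim to be tested.

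The genes of the dioxin receptor AHR, which induces UGT and GST genes, and of its partner ARNT lay below the filter and were not tested in the report; they were chosen here after their values were seen. Arnt had 17.2, 15.2, 13 and 23.7 units on the persimmon peel diet and 37.5, 48.3, 48.7 and 34.4 units on the control diet. With no filter its log2 fold change was -1.31 (SE 0.27, limma adjusted p = 0.0375). Ahr had 17.5, 24.7, 2.7 and 5.6 units on the persimmon peel diet and 34.2, 28.7, 52.5 and 75.5 units on the control diet (-2.30, SE 0.61, adjusted p = 0.0955). The diets did not overlap for either gene, but at such low signals the size of a change is uncertain. Cyp1a1, the best known AHR target, lay between 3.3 and 38 units on the persimmon peel diet and between 1.3 and 5.6 units on the control diet.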
